A study of Mus musculus with 16 samples.

Results

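The receptors and ligands of the interferon and IL-10 pathways were followed in mouse bone marrow-derived macrophages (BMDMs), macrophages grown in culture from bone marrow. The 8 genes Ifnar1, Ifnar2, Ifngr1, Ifngr2, Il10ra, Il10rb, Il10 and Ifnb1 were selected by symbol from the 55487 genes of the count table, and all 8 were found. The macrophages came from WT Balb/c mice at an age of 8 weeks, and RNA-seq was done on 16 samples. The samples formed 6 groups. BMDMs in DMEM, the medium without tumor factors (DMEM, n = 2), were compared with BMDMs in conditioned media (CM, n = 3) of 4T1 cells, a mouse mammary tumor line. Further groups were CM with 0.5 µM ruxolitinib (CM + Rux, n = 3, labelled 4 h), CM with 0.5 µM ruxolitinib and 0.8 µM IKK-16 (CM + Rux + IKK-16, n = 3), ruxolitinib in DMEM (DMEM + Rux, n = 3, dose not given in the sources used here) and CM + Rux with a label of 2 h (n = 2, replicates 2 and 3). Ruxolitinib is an inhibitor of JAK1 and JAK2. IKK-16 blocks IKKα and IKKβ, the kinases that release NF-κB. IKK-16 was given together with ruxolitinib in CM, so its effect without ruxolitinib was not measured. What the 2 h refers to is not stated, so these samples were kept as a group of their own. Nothing in the labels says that replicates came from separate animals or cultures, and p-values measure the spread between these samples.

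Type I interferons, among them interferon-β (the product of Ifnb1), signal through a receptor of the IFNAR1 and IFNAR2 chains, and interferon-γ through IFNGR1 and IFNGR2. IL-10, a cytokine that restrains inflammatory genes in macrophages, binds IL10RA and then recruits IL10RB, a chain it shares with IL-22 and the type III interferons. Each of these receptors works through JAK1 with TYK2 or JAK2, kinases that phosphorylate STAT proteins, and ruxolitinib acts at this step. Macrophages carry all of these receptors.

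Levels are given in CPM, the fragments of a gene relative to all fragments of its library on a common scale, with library totals scaled by relative log expression (RLE). Library totals ran from 18449388 to 46215853 fragments. A gene was tested where it was above 1 CPM in at least 2 samples, which 12372 genes were, and it was called changed at an adjusted p-value (Benjamini-Hochberg, edgeR quasi-likelihood test) under 0.05 with a log2 fold change beyond 0.5 in size. The 6 receptor genes and Il10 were tested, and Ifnb1 was under the filter. The 8 macrophage markers were abundant, with a summed level of 40148 to 57183 CPM in every sample. Summed markers of T and NK cells reached at most 0.0509 CPM and those of B cells at most 1.23 CPM. In bulk samples, fewer cells of a type and less RNA per cell cannot be told apart.

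A group of 4 receptor genes lies close together on mouse chromosome 16. Ifnar2 (chr16:91372783-91405589), Il10rb (91406164 to 91425834), Ifnar1 (91485238 to 91507441) and Ifngr2 (91547072 to 91565623) are all on the plus strand of GRCm38, within 193 kb. Ifngr1 (chr10:19591949-19610229, plus strand), Il10ra (chr9:45253837-45269149, minus strand), Il10 (chr1:131019845-131024974, plus strand) and Ifnb1 (chr4:88522025-88522774, minus strand) are on other chromosomes. Of the 4 genes in this cluster, Il10rb was the 1 not called in CM against DMEM, where 45% of all tested genes were called. Il10rb passed the adjusted p-value there (edgeR, 0.015) and was under the fold required.

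The promoters of 5 of the 8 genes were at hand (RefSeq, GRCm38.p6), and all 5 are shown, to set the receptor genes that were higher in CM (Ifnar1, Ifnar2 and Ifngr2) beside the 1 that was lower (Ifngr1) and Ifnb1, which was near the limit of detection. Each runs 5′ to 3′ on the strand of its gene, and capitals mark a match to a searched motif. Ifnar1 is chr16:91485015-91485214 on the plus strand, Ifnar2 is chr16:91372558-91372782 on the plus strand, Ifngr2 is chr16:91546859-91547058 on the plus strand, Ifngr1 is chr10:19591749-19591948 on the plus strand, and Ifnb1 is chr4:88522871-88522944 on the minus strand.
Ifnar1: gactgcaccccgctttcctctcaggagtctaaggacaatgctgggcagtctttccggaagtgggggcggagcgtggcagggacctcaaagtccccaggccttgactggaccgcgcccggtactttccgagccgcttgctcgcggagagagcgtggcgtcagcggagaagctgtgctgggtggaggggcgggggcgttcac
Ifnar2: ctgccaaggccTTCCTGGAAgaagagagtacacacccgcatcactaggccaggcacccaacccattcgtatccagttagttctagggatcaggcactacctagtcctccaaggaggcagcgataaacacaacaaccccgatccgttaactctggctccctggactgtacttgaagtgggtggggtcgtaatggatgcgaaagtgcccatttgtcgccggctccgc
Ifngr2: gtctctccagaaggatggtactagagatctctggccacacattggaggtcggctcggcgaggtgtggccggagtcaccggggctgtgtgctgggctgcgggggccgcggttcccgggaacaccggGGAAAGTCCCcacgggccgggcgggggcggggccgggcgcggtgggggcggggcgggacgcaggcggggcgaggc
Ifngr1: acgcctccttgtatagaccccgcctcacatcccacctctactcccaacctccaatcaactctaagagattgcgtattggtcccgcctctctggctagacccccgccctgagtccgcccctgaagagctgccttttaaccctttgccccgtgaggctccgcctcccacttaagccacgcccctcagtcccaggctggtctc
Ifnb1: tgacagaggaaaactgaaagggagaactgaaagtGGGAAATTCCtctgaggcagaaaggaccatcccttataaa

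The motifs were searched on both strands in the 250 bases before the start. They were the interferon-stimulated response element (ISRE, GAAANNGAAA), the STAT site (GAS, TTCNNNGAA) and the κB site of NF-κB (GGGANNTTCC). Ifnb1 held a κB match starting 116 bases before its annotated start, and Ifngr2 held one on the other strand, 75 bases before its own. The stretch shown for Ifnb1 has 74 bases and ends with the letters TATAAA, 77 bases before that annotated start. The distance of 116 bases holds for the annotated start only. Ifnar2 held a GAS match starting 214 bases before the start. Ifnar1 and Ifngr1 held no match to these letters. Of the 32851 promoters searched, 2.98% held an ISRE match, 7.02% a GAS match and 1.21% a κB match. A match is a description of the letters and not a measured site. Letters with another spacing were not searched for, as in gaaaactgaaa of the stretch shown for Ifnb1.

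Exposure to tumor CM was compared with DMEM first. In CM, both chains of the type I interferon receptor, the Ifngr2 chain of the interferon-γ receptor and Il10 were higher, and the Ifngr1 chain was lower. Of the 7 tested genes, 5 were called (4 higher and 1 lower). Over all tested genes 45% were called, 20.9% higher and 24.1% lower, so a call as such did not set these genes apart. The receptor chains of IL-10 did not pass both thresholds. Across all genes RLE scaling moved the median by 0.31 on the log2 scale against scaling by total counts, and the 2584 higher and 2980 lower genes became 1536 and 4606. The same 5 of the 7 genes were called under either scaling. Over all alternatives the log2 fold change of Ifnar2 went down to 0.51, close to the 0.5 required, and that of Ifngr2 to 0.70.

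**Figure D1:**
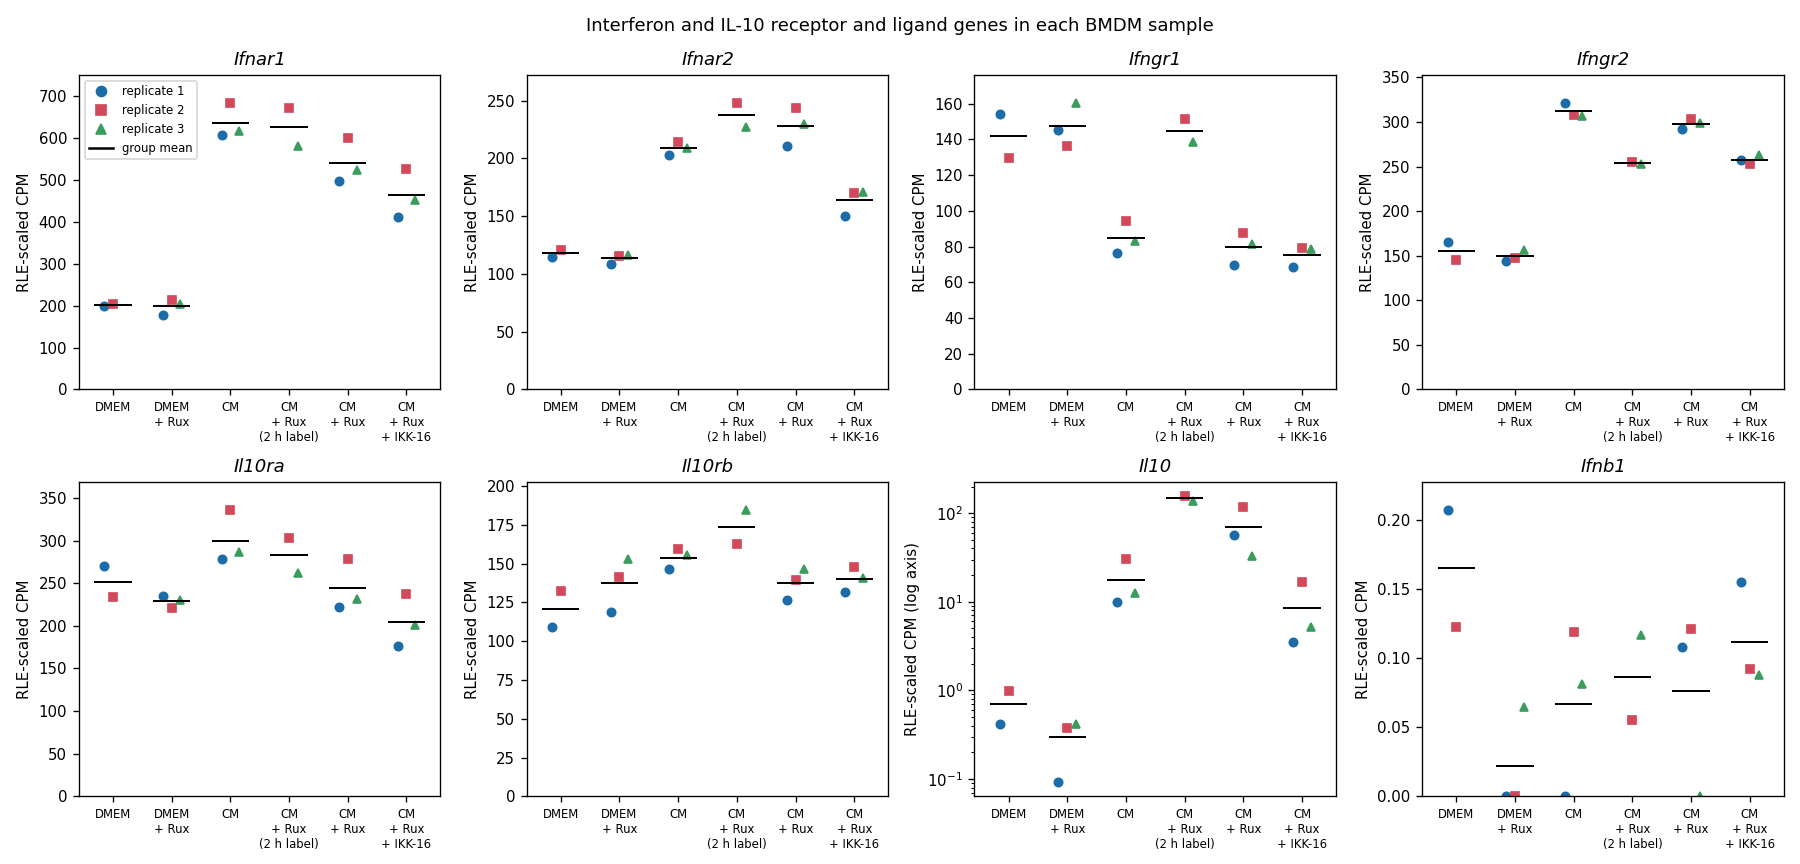
RLE-scaled CPM of each gene (y axis, linear from 0 except for Il10, which has a log axis) in the 6 groups (x axis). Points are samples, shaped and colored by replicate number, and lines are group means. Ifnar1, Ifnar2 and Ifngr2 sit higher in all groups with CM than in both DMEM groups, Ifngr1 sits lower in CM, CM + Rux and CM + Rux + IKK-16, and Ifnb1 stays below 0.21 CPM in all samples.

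Ifnar1, the chain of the type I receptor that carries TYK2, was at 199 and 205 CPM in the DMEM samples and at 608, 683 and 617 CPM in CM. The CM samples lay above both DMEM samples without overlap. The fitted log2 fold change was 1.66 (SE 0.13, edgeR adjusted p = 1.2e-07), a 3.16-fold rise. In DMEM + Rux it was at 178, 214 and 205 CPM, which overlapped with DMEM. CM + Rux gave 498, 600 and 525 CPM, all below the lowest CM sample. That difference was -0.23 on the log2 scale (SE 0.11), and it did not pass (adjusted p = 0.30). CM + Rux + IKK-16 gave 412, 526 and 452 CPM, and the 2 h group 673 and 581 CPM. By group means the order from low to high was DMEM + Rux, DMEM, CM + Rux + IKK-16, CM + Rux, 2 h and CM, and only the step from DMEM to CM + Rux + IKK-16 was free of overlap.

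Ifnar2, the chain that binds JAK1, moved in the same direction in CM with a smaller size. It was at 115 and 121 CPM in DMEM and at 203, 214 and 209 CPM in CM, with no overlap. The log2 fold change was 0.82 (SE 0.08, edgeR adjusted p = 1.3e-06). CM + Rux gave 211, 244 and 230 CPM, which overlapped with CM, and the 2 h group gave 248 and 227 CPM. With IKK-16 the level was lower, at 151, 171 and 171 CPM, below every CM + Rux and every CM sample and above every DMEM sample. This difference from CM + Rux was -0.47 on the log2 scale (SE 0.07, edgeR adjusted p = 8.2e-04), just short of the 0.5 required for a call. It lay between -0.50 and -0.53 and was called when CM + Rux replicate 1, CM + Rux + IKK-16 replicate 2 or CM + Rux + IKK-16 replicate 3 was left out. DMEM + Rux was at 109, 115 and 117 CPM, overlapping with DMEM. By group means the order was DMEM + Rux, DMEM, CM + Rux + IKK-16, CM, CM + Rux and 2 h, and the steps from DMEM to CM + Rux + IKK-16 and from there to CM were free of overlap.

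The interferon-γ receptor chains moved in opposite directions in CM. Ifngr1, which binds the ligand and carries JAK1, was at 154 and 130 CPM in DMEM and at 76.3, 94.3 and 83.3 CPM in CM, a log2 fold change of -0.75 (SE 0.12, edgeR adjusted p = 9.2e-05). Ifngr2, which carries JAK2, was at 165 and 145 CPM in DMEM and at 321, 308 and 307 CPM in CM, a log2 fold change of 1.01 (SE 0.07, adjusted p = 5.0e-08). Neither pair of groups overlapped.

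With ruxolitinib neither chain was called in either medium. Ifngr1 was at 69.7, 87.9 and 81.2 CPM in CM + Rux and at 145, 137 and 160 CPM in DMEM + Rux, and each set overlapped with its group without ruxolitinib. Ifngr2 was at 292, 303 and 299 CPM in CM + Rux, all below the lowest CM sample, with a log2 difference of -0.07 (SE 0.06, edgeR adjusted p = 0.72). With IKK-16, Ifngr1 was at 68.5, 79.1 and 78.5 CPM, overlapping with CM + Rux. Ifngr2 was at 258, 253 and 262 CPM with IKK-16, below every CM + Rux sample, with a log2 difference of -0.21 (SE 0.06, adjusted p = 0.032) that was under the fold required. The order of Ifngr1 by group means was CM + Rux + IKK-16, CM + Rux, CM, DMEM, 2 h and DMEM + Rux, with overlap between all neighbours but CM and DMEM. That of Ifngr2 was DMEM + Rux, DMEM, 2 h, CM + Rux + IKK-16, CM + Rux and CM, where DMEM + Rux overlapped with DMEM and the 2 h group with CM + Rux + IKK-16.

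The 2 h samples differed from CM + Rux most clearly in Ifngr1. They held 151 and 138 CPM, within the range of DMEM and DMEM + Rux and above every other sample with CM. Ifngr1 was 1.82-fold higher than in CM + Rux (log2 fold change 0.86, SE 0.12, edgeR adjusted p = 9.2e-05). Ifngr2 was at 255 and 253 CPM in the 2 h group, below every CM + Rux sample, with a log2 difference of -0.23 (SE 0.07, adjusted p = 0.016) that was under the fold required. Ifngr1 was the 1 called gene of the 7, beside 23.3% of all tested genes in this comparison, 12.6% higher and 10.7% lower.

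Summed dendritic cell markers were also higher in the 2 h group (9.003 to 13.4 CPM) than in any other group (at most 3.51 CPM). Of these 6 markers 2 passed the filter, Flt3 was at 0 in both 2 h samples, and Zbtb46, a transcription factor gene of dendritic cells, made up most of the sum (7.95 and 12.3 CPM, at most 2.09 CPM elsewhere). Their part in the 2 h results was not tested.

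**Figure D2:**
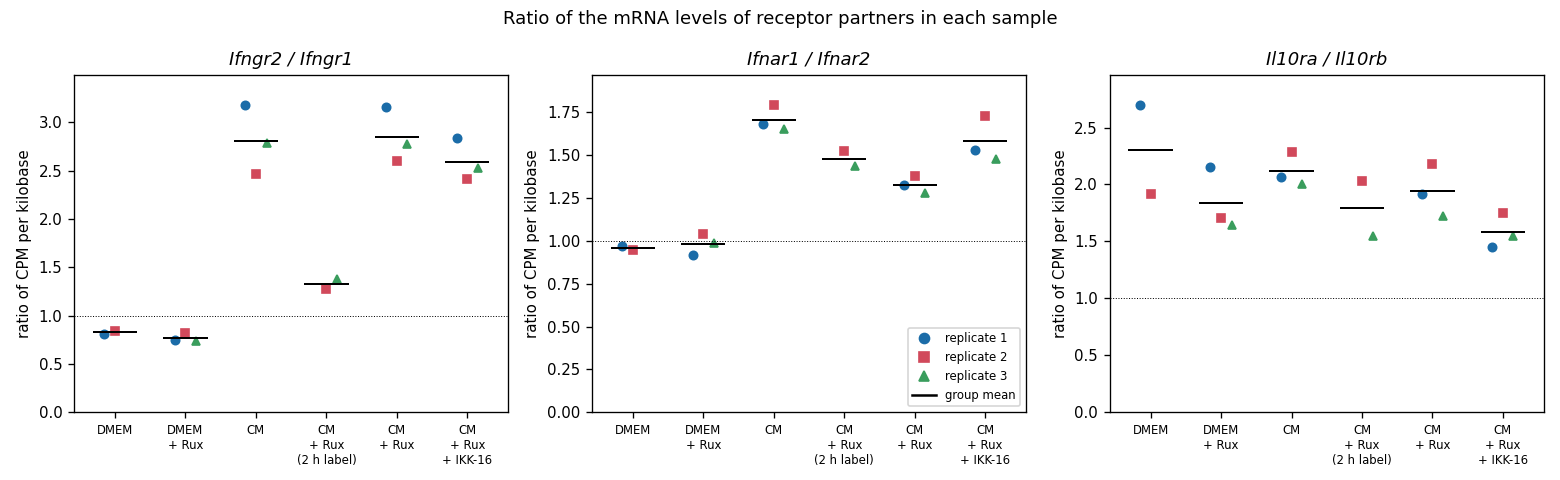
Ratio of the CPM per kilobase of exon of receptor partners (y axis, linear from 0) in each sample of the 6 groups (x axis), with points shaped and colored by replicate number, group means as lines and a dotted line at a ratio of 1. Ifngr2 to Ifngr1 lies below 1 in all DMEM and DMEM + Rux samples and above 1 in all samples with CM.

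The balance of receptor partners is shown in the plot of ratios of CPM per kilobase of exon. Ifngr2 to Ifngr1 was 0.827 ± 0.026 (SD, n = 2) in DMEM and 0.770 ± 0.041 (n = 3) in DMEM + Rux. It was 2.81 ± 0.36 (n = 3) in CM, 2.85 ± 0.29 (n = 3) in CM + Rux and 2.60 ± 0.22 (n = 3) in CM + Rux + IKK-16. The 2 h group stood between, at 1.33 ± 0.074 (n = 2). By this measure the higher chain was Ifngr1 without CM and Ifngr2 with it. The lengths are those of all annotated exons and not of the transcripts present, so a ratio near 1 does not rank the chains. The change of the ratio between groups does not depend on the lengths.

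Ifnar1 to Ifnar2 was 0.959 ± 0.017 (SD, n = 2) in DMEM and 1.71 ± 0.073 (n = 3) in CM. In DMEM + Rux it was 0.981 ± 0.064 (n = 3). In CM + Rux it was 1.33 ± 0.049 (n = 3), and its highest sample, at 1.38, lay below the lowest CM sample, at 1.65. CM + Rux + IKK-16 gave 1.58 ± 0.13 (n = 3), above every CM + Rux sample and overlapping with CM, and the 2 h group gave 1.48 ± 0.063 (n = 2), also above every CM + Rux sample. Il10ra to Il10rb was between 1.46 and 2.69 in every sample, and all groups overlapped with at least 1 other. These ratios follow from the same values as the levels above and were not tested on their own.

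Il10ra, the ligand-binding chain of the IL-10 receptor, was the receptor gene with the highest level per kilobase in DMEM, at 72.0 ± 7.4 CPM per kilobase (SD, n = 2). In CM it was at 85.8 ± 8.9 (n = 3), below Ifnar1 at 107 ± 6.9 (n = 3) on the same scale. In CPM it was at 270 and 234 in DMEM and at 278, 336 and 286 in CM, which did not overlap. The log2 difference of 0.25 (SE 0.13) did not pass (edgeR adjusted p = 0.11), and it was -0.06 when counts were scaled by their totals alone. Il10ra gave 222, 278 and 232 CPM in CM + Rux and 176, 238 and 200 CPM in CM + Rux + IKK-16. The log2 difference of CM + Rux from CM was -0.30 (SE 0.12, adjusted p = 0.22), and that of CM + Rux + IKK-16 from CM + Rux was -0.26 (SE 0.12, adjusted p = 0.17). In DMEM + Rux it was at 235, 221 and 231 CPM, and in the 2 h group at 303 and 262 CPM. Neighbouring groups overlapped at every step of the order from CM + Rux + IKK-16, the lowest, to CM, the highest.

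Il10rb, the shared signaling chain, had the flattest profile of the cluster on chromosome 16, with its highest group mean 1.44 times the lowest, against 2.08 for Ifngr2, 2.09 for Ifnar2 and 3.20 for Ifnar1. It was at 109 and 132 CPM in DMEM and at 146, 160 and 156 CPM in CM. The groups did not overlap, and the log2 difference of 0.35 (SE 0.11, edgeR adjusted p = 0.015) was under the fold required. Its levels were 126, 139 and 146 CPM in CM + Rux, 132, 148 and 141 CPM in CM + Rux + IKK-16 and 119, 141 and 153 CPM in DMEM + Rux, which overlapped with each other. The 2 h group was highest, at 163 and 184 CPM, with a log2 difference from CM + Rux of 0.34 (SE 0.11, adjusted p = 0.028), also under the fold required. By total counts alone the difference of CM from DMEM was 0.04.

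Il10 varied more than any of the receptor genes. It was at 0.414 and 0.982 CPM in DMEM, from 14 and 24 fragments, and at 9.96, 30.6 and 12.7 CPM in CM, from 179, 1031 and 312 fragments. The groups did not overlap. The fitted rise was 27.2-fold (log2 fold change 4.77, SE 0.95, edgeR adjusted p = 6.1e-04). It was 4.10 on the log2 scale without CM replicate 2 and 5.44 without DMEM replicate 2, and called in both.

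In CM + Rux, Il10 was at 56.4, 119 and 32.8 CPM, above every CM sample. The fitted ratio to CM was 3.85-fold (log2 1.95, SE 0.56), and it did not pass the adjusted threshold in edgeR (adjusted p = 0.068). With the replicate number as a block the log2 difference of 1.98 passed (edgeR adjusted p = 4.4e-04). The labels do not state a pairing. Same-numbered samples deviated together, but without a reference from differently numbered samples this does not establish one. Within the same replicate number, the ratio was 5.66, 3.88 and 2.58 for replicates 1, 2 and 3, higher in 3 of 3. It was also called without CM replicate 2 (log2 2.61, adjusted p = 0.044) and without CM + Rux replicate 3 (log2 2.28, adjusted p = 0.046). It was smallest, at 1.31 on the log2 scale (adjusted p = 0.23), without CM + Rux replicate 2. Over all alternatives the adjusted p of Il10 in this comparison ran from 4.0e-05 to 0.23.

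With IKK-16 added, Il10 was at 3.50, 16.9 and 5.24 CPM, below every CM + Rux sample and overlapping with CM. The log2 fold change from CM + Rux was -3.04 (SE 0.59, edgeR adjusted p = 0.0041), which was 0.122 of the level in CM + Rux. It was the 1 called gene of the 7, beside 7.74% of all tested genes (4.07% higher and 3.66% lower). All 3 replicate numbers were lower, with ratios of 0.0622, 0.142 and 0.160. The log2 fold change was -2.41 without CM + Rux replicate 2 and -4.00 without CM + Rux + IKK-16 replicate 2. In this comparison 504 of all genes were higher and 453 lower, and scaling by total counts alone gave 727 and 350.

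The 2 h samples held the most Il10, at 157 and 137 CPM, above every CM + Rux sample. The log2 difference from CM + Rux was 1.07 (SE 0.58, edgeR adjusted p = 0.16). With the replicate block it was 1.02 and passed (adjusted p = 0.015), and leaving out CM + Rux replicate 2 gave 1.71 (adjusted p = 0.038). DMEM + Rux held the least, at 0.0924, 0.380 and 0.421 CPM from 2, 17 and 13 fragments, which overlapped with DMEM. In each of the groups with CM, replicate 2 had the most Il10, as it did for Ifnar1, Ifngr1 and Il10ra. The order of Il10 by group means was DMEM + Rux, DMEM, CM + Rux + IKK-16, CM, CM + Rux and 2 h, and DMEM + Rux with DMEM and CM + Rux + IKK-16 with CM were the neighbours that overlapped.

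**Figure D3:**
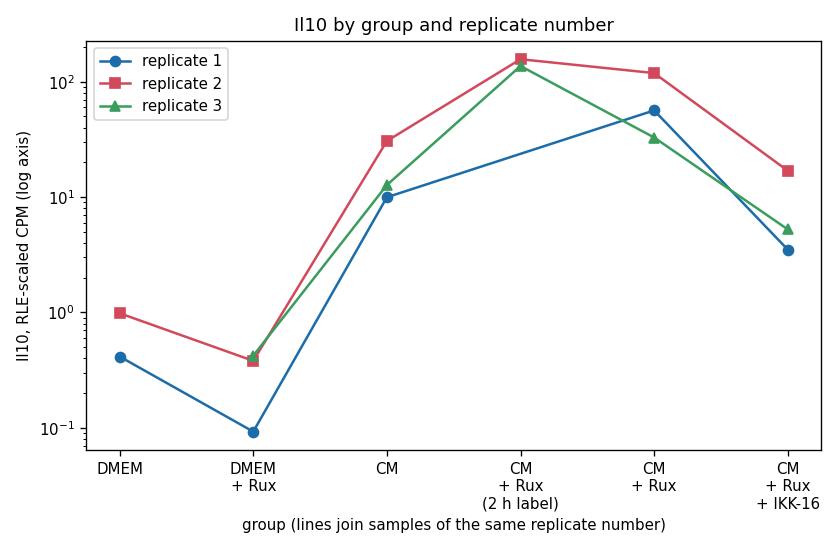
RLE-scaled CPM of Il10 (y axis, log scale) in the 6 groups (x axis). Lines join samples with the same replicate number, and replicate 1 is absent from the 2 h group and replicate 3 from DMEM. Every sample with CM and ruxolitinib alone lies above every CM sample, and samples with IKK-16 lie below every CM + Rux sample.

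Ruxolitinib was compared with its absence in both media. In CM, where 3.33% of all tested genes were called (1.2% higher and 2.13% lower), edgeR called 0 of the 7 genes. At an unadjusted p under 0.05 there were 3 (Ifnar1, Il10ra and Il10), and DESeq2 called 0. With the replicate number as a block, edgeR called 1 (Il10) of the 7 and 745 genes in all instead of 412. In DMEM, where 0.97% of all tested genes were called and 0% higher, edgeR and DESeq2 called 0 of the 7, and 0 had an unadjusted p under 0.05. The receptor genes differed by -0.14 to 0.19 on the log2 scale between DMEM + Rux and DMEM, and Il10 by -1.01 with an SE of 1.48. A difference in Il10 was therefore not detectable at this depth.

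Whether ruxolitinib acted differently in the media was tested as an interaction. Over all genes 0.412% were called, 0.234% higher and 0.178% lower, which is 51 genes. The count was 444 with the replicate block, 349 without the filter and 234 with DESeq2. Of the 7 genes 0 were called in each of these fits, and 1 had an unadjusted p under 0.05. This was Il10rb, with a difference of -0.35 (SE 0.15, adjusted p = 0.48). For Il10 the difference was 2.96 with an SE of 1.61 (adjusted p = 0.67).

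CM was compared with DMEM a further time in the presence of ruxolitinib, from samples other than those of CM against DMEM. Again 5 of the 7 genes were called, 4 higher and 1 lower, beside 47.3% of all tested genes (22.3% higher and 25% lower, 2761 and 3096 genes, or 1699 and 4674 by total counts alone). The log2 fold changes were 1.44 (SE 0.11) for Ifnar1, 1.004 (SE 0.07) for Ifnar2, -0.89 (SE 0.11) for Ifngr1 and 0.99 (SE 0.06) for Ifngr2. For Il10 it was 7.72 (SE 0.86, edgeR adjusted p = 2.8e-06), a 211-fold ratio to a group with at most 17 fragments in a sample, and 7.09 without CM + Rux replicate 2. Il10ra and Il10rb differed by 0.09 (SE 0.12) and -0.005 (SE 0.10), and neither was called.

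**Figure D4:**
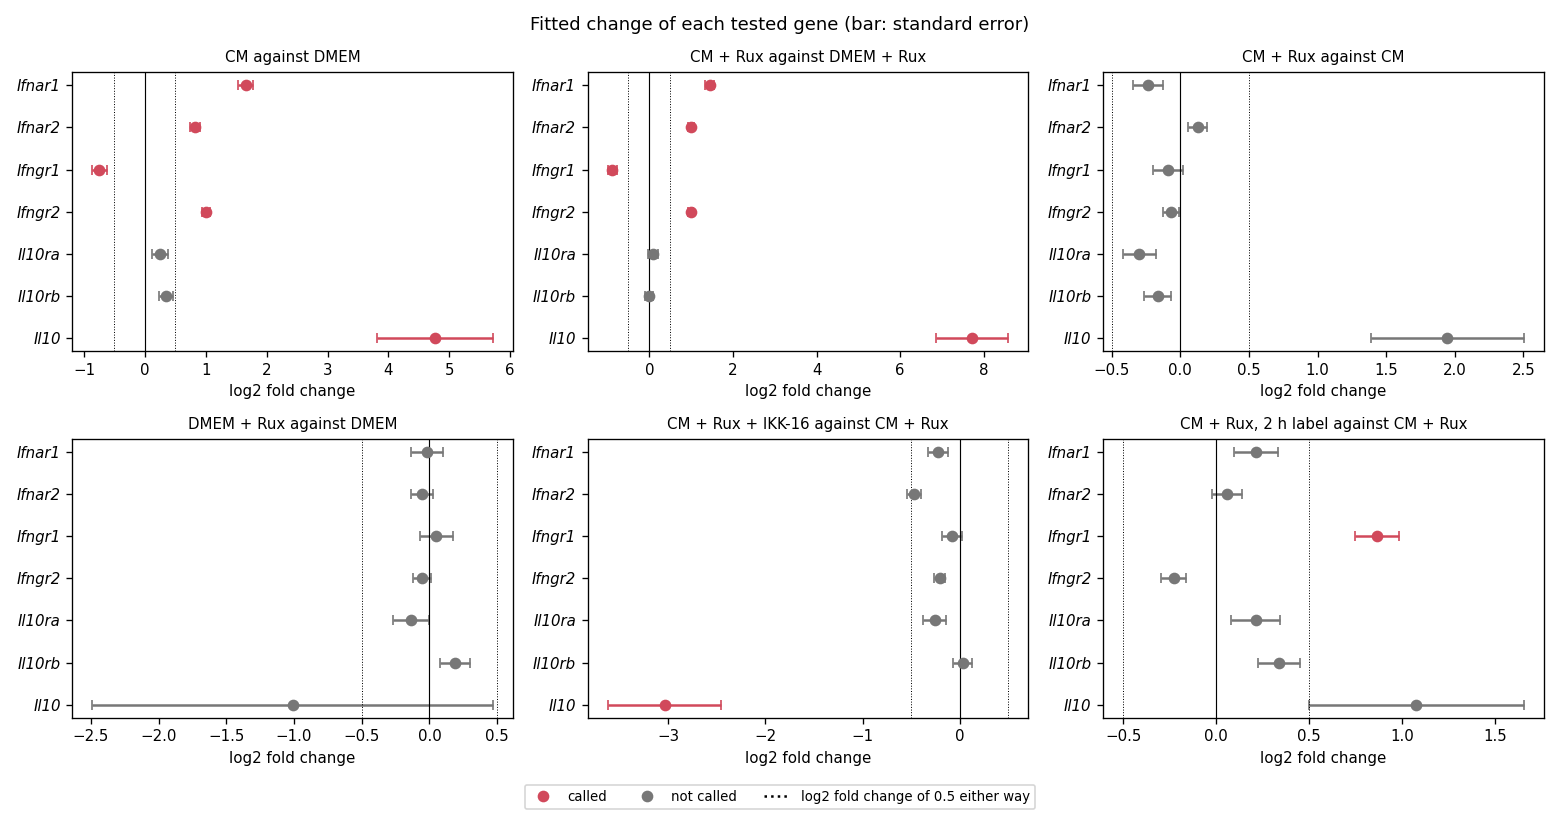
Log2 fold change (x axis, scaled for each panel) of the 7 tested genes (y axis) in 6 comparisons, with bars of 1 standard error of the edgeR fit, a solid line at 0 and dotted lines at 0.5 either way. Red points are called. In both comparisons of CM with DMEM, Ifnar1, Ifnar2, Ifngr2 and Il10 lie to the right and Ifngr1 to the left, and Il10 is the only red point with IKK-16.

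Ifnb1 was near the limit of detection throughout. It had 43 fragments in all, in 12 of the 16 samples, with at most 7 in a sample. There were 7 and 3 fragments in DMEM, 0, 0 and 2 in DMEM + Rux, 0, 4 and 2 in CM and 4, 5 and 0 in CM + Rux. CM + Rux + IKK-16 gave 6, 3 and 3 fragments, and the 2 h group gave 2 and 2. Neighbouring groups in the order of means overlapped in CPM, while both DMEM samples (0.207 and 0.123 CPM) lay above every DMEM + Rux sample (at most 0.0648 CPM). A limit of 3 fragments corresponds to 0.0670 to 0.175 RLE-scaled CPM across samples, by counting error only. Without the filter its edgeR adjusted p was 0.25 or above in each comparison. For DMEM + Rux against DMEM the fitted log2 difference was -2.79 (SE 1.17, edgeR adjusted p = 0.91), a value that depends on the prior count, and this comparison was the 1 with an unadjusted p under 0.05. A difference in Ifnb1 did not pass in any comparison at this depth.

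Other ligands of these receptors and of their relatives mostly had fewer counted fragments still. Counting left out multimapping fragments, so fragments that match several similar genes alike, as within the interferon-α family, were not counted. Of 24 further interferon and IL-10 family ligands, 19 had no fragment in any sample, among them all interferon-α genes of the list and the interferon-γ gene Ifng. Another 4 had 1 to 3 fragments in all. Il19, of the IL-10 family, was the exception with 185 fragments in 13 samples. It was at 0 in both DMEM samples and at 1.04 ± 0.64 CPM (SD, n = 3) in CM, 0.547 ± 0.38 (n = 3) in CM + Rux and 0.0795 ± 0.090 (n = 3) in CM + Rux + IKK-16, and it was under the filter for a test. The ligands that the BMDMs met in the medium were not measured.

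The signaling genes behind the receptors were described by lists. The share called over all tested genes, the background of each count, was 45% in CM against DMEM (20.9% higher and 24.1% lower), 3.33% with ruxolitinib in CM, 0.97% with ruxolitinib in DMEM, 7.74% with IKK-16 and 23.3% in the 2 h comparison. Among 7 genes of the receptor kinases, STATs and Irf9, 3 rose in CM (Jak1, Jak2 and Stat3) and 0 fell, beside 20.9% and 24.1% of all genes. Jak2, the partner of IFNGR2, rose most, from 60.7 ± 16 CPM (SD, n = 2) to 732 ± 31 CPM (n = 3), a log2 fold change of 3.59 (SE 0.15). With ruxolitinib Irf9 fell in both media. Irf9, a DNA-binding factor of the type I interferon response, went from 67.7 ± 7.7 to 24.7 ± 2.7 CPM in CM (log2 -1.46, n = 3 each) and from 84.4 ± 17 (n = 2) to 23.5 ± 0.88 CPM (n = 3) in DMEM (log2 -1.84). Jak2 and Stat3 fell with IKK-16, Jak2 by 0.81 on the log2 scale.

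Among 9 genes that restrain these receptors, 5 rose and 1 fell in CM, beside 20.9% and 24.1% of all genes. Socs3, an inhibitor of STAT3 signaling, rose most, with a log2 fold change of 7.54 (SE 0.60), and Usp18, which binds IFNAR2 and limits its signaling, fell by 1.02 (SE 0.32). Ruxolitinib lowered 2 of the 9 in CM, beside 2.13% of all genes, and Usp18 fell by 3.25 on the log2 scale. It lowered 3 in DMEM, beside 0.97% of all genes, and Isg15, a ubiquitin-like modifier, fell by 3.52. IKK-16 lowered 3, beside 3.66% of all genes, most of all Socs1, an inhibitor of JAK kinases (log2 -1.56, SE 0.12). Socs1 was also called in the interaction of ruxolitinib with the medium (difference 1.499, SE 0.27, edgeR adjusted p = 0.030).

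Targets of type I interferon went down with ruxolitinib in both media, while the receptor genes Ifnar1 and Ifnar2 were not called in either. Of 12 targets, 8 fell in CM with ruxolitinib and 11 fell in DMEM, beside 2.13% and 0.97% of all tested genes. The median log2 differences of the 12 were -2.71 and -4.17. The median of all tested genes was between -0.03 and 0.01 in each comparison. Ifit3 fell by 4.06 in CM and Ifit1 fell by 5.55 in DMEM. Both encode antiviral proteins. CM itself lowered 5 of the 12, beside 24.1% of all tested genes, in samples where Ifnar1 and Ifnar2 were higher. Ifit3 fell most (log2 -3.25, from 54.1 ± 29 to 5.54 ± 2.8 CPM). Targets of interferon-γ were mixed in CM, with 5 higher and 2 lower of 11 tested, beside 20.9% and 24.1% of all tested genes. Cd274, which encodes the checkpoint ligand PD-L1, rose by 5.01 on the log2 scale and Ciita, the activator of MHC class II genes, fell by 0.89. Ruxolitinib lowered 6 of the 11 in either medium, beside 2.13% of all tested genes in CM and 0.97% in DMEM. Gbp4, an interferon-induced GTPase, changed by -1.97 in CM and -3.43 in DMEM. In the interaction with the medium, 1 of the 11 was called higher and 1 lower, beside 0.234% and 0.178% of all tested genes. Only for the genes called there did the response to ruxolitinib differ between the media. Gbp4 was not among them (difference 1.46, SE 0.58, edgeR adjusted p = 0.41).

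**Figure D5:**
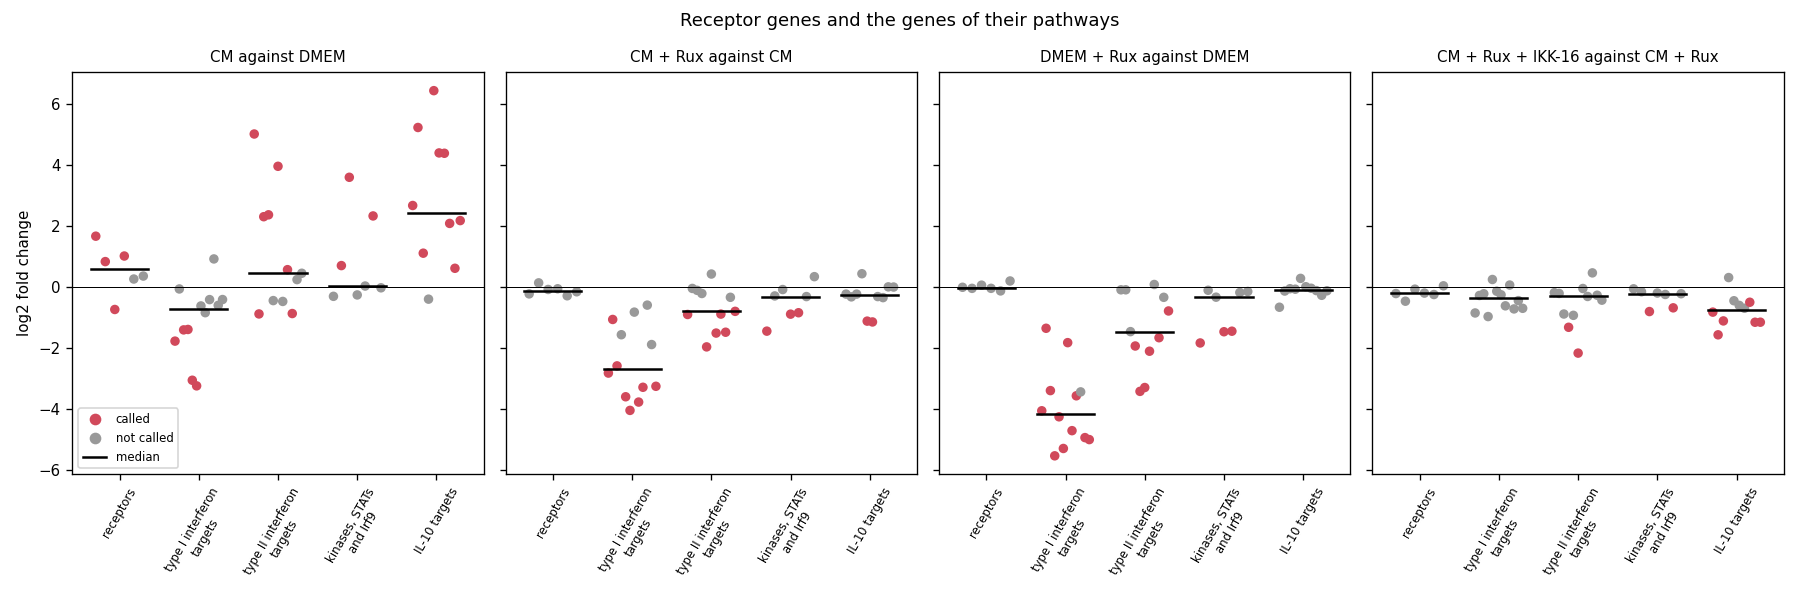
Log2 fold change (y axis) of the 6 receptor genes and of the tested genes of 4 pathway lists (x axis) in 4 comparisons. Points are genes, red where called, and lines are medians. With ruxolitinib the receptor genes stay within 0.30 of 0, while type I interferon targets have medians of -2.71 in CM and -4.17 in DMEM.

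Genes that IL-10 is known to induce in macrophages were mostly higher in CM, where Il10 itself was higher. Of 10 such genes 9 rose, beside 20.9% of all tested genes. The median log2 fold change of the 10 was 2.42, and Il1rn, the antagonist of the IL-1 receptor, rose most (6.43, SE 0.32). In CM + Rux, where Il10 stood above CM, 2 of the 10 were lower than in CM, beside 2.13% of all tested genes. The largest fall was that of Il4ra, the IL-4 receptor chain (log2 -1.16, SE 0.25). IKK-16 lowered 6, beside 3.66% of all tested genes, with a median of -0.77. Ddit4, an inhibitor of mTORC1, was lowest at -1.58 (SE 0.28). In the 2 h group, which held the most Il10, 1 was higher and 3 were lower than in CM + Rux. Over all tested genes 12.6% were higher and 10.7% lower in this comparison. The higher gene was Etv3, a repressor of transcription (log2 0.73), and Hmox1, heme oxygenase 1, fell most (log2 -1.57).

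Genes that act upstream of Ifnb1 were called in CM about as often as all genes. Of 14 sensors, adaptors, kinases and IRF factors, 3 rose and 3 fell in CM, beside 20.9% and 24.1% of all genes, with Ikbke, a kinase of IRF3, at 1.121 and Tlr3, a sensor of double-stranded RNA, at -0.87 on the log2 scale. Ruxolitinib lowered 4 in CM and 5 in DMEM, beside 2.13% and 0.97% of all tested genes. In both media Ddx58, which encodes the RNA sensor RIG-I, fell most (log2 -2.04 and -2.14). Tlr4, the LPS receptor, was 0.68 higher with IKK-16 than in CM + Rux. Its level was 239 ± 26 CPM in CM, 116 ± 11 in CM + Rux and 186 ± 20 in CM + Rux + IKK-16 (SD, n = 3 each). It was at 223 ± 11 CPM (n = 2) in DMEM and 209 ± 30 CPM (n = 3) in DMEM + Rux. Of the 14, 1 was called in the interaction, and this was Tlr4, which was lower, beside 0.178% of all tested genes. Of 6 other receptors of the same class, F3 (tissue factor) and Il20rb passed the filter. F3 rose in CM by 4.77 on the log2 scale (SE 0.72), from 0.188 ± 0.14 to 4.797 ± 2.5 CPM, and fell by 2.19 (SE 0.47) with IKK-16.

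Across the 16 samples the genes with the profile most like Ifnar1 by Pearson correlation of log2(CPM + 1) were Cish (r = 0.99), Gm6377 and Eif2s1. Those most like Ifnar2 were Rab5b (r = 0.99), Mamld1 and Rhou. For Ifngr2 they were Hif1a (r = 0.99), Rffl and Vps54, and for Ifngr1 Nostrin (r = 0.98), Fam126a and Pigt. Il10 was most like Hacd2 (r = 0.98), Plat and Arhgef3. The likeness was looser for Il10ra (Gmfg, r = 0.92) and Il10rb (Ecm1, r = 0.88). Among the members themselves, Ifnar1 and Ifnar2 had r = 0.96, Ifngr1 and Ifngr2 r = -0.76, and Il10ra and Il10rb r = 0.37. These samples fall into treatment groups, which the genes share, and the values are descriptions.

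Markers of other cells were at low levels. Summed neutrophil markers were 7.43 to 8.18 CPM in CM and 2.04 to 3.27 CPM in DMEM, with Ly6g at 0 in both groups and 1 of 6 markers above the filter. Summed epithelial markers, which would show RNA of 4T1 cells, were 0.774 to 1.45 CPM in CM and at most 0.118 CPM in DMEM, with 0 of 6 above the filter and Krt14 at 0. B cell markers were at most 0.267 CPM in CM and at least 1.15 CPM in DMEM. Summed fibroblast markers were between 5.74 and 20.9 CPM and overlapped between all groups. Their part in the results was not tested.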

How the data were processed

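Counts of fragments per gene were deposited by the authors as whole numbers for 16 samples. They had trimmed reads with Trimmomatic 0.33, aligned them to GRCm38 with HISAT2 2.1.0 and counted with featureCounts 1.6.2 on Ensembl 100, in the reverse-stranded orientation, leaving out multimapping fragments. Symbols came from the GENCODE M21 annotation of the same build, which matched 55141 identifiers. Counts were RLE-scaled and filtered (above 1 CPM in at least 2 samples). The quasi-likelihood test of edgeR 4.0.16 (limma 3.58.1, R 4.3.3) was fitted on all genes in 1 model of 6 groups. The study's methods name edgeR with this scaling, filter and pair of thresholds, and its statistics section also names a Student test with Tukey's comparison for RNA-seq. Alternatives were TMM, no filter, the replicate number as a block, only the groups compared, DESeq2 1.42.0 and each sample left out. Scaling by total counts was added after seeing the data. Python 3.11.15, pandas 2.3.3, numpy 2.4.6 and matplotlib 3.10.9 served for the rest. The fit was tested on simulated data.

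Samples were grouped by label. The deviations of same-numbered samples from their group means had correlations of 0.17 to 0.63 in each comparison, with 3 pairs where CM + Rux was compared with CM, DMEM + Rux or CM + Rux + IKK-16, and 2 pairs elsewhere. Samples with different numbers were not compared in this way as a reference, so these values do not establish pairing. The main model left the numbers out, and the block was an alternative. No 2 samples were copies (replicates differed with a chi-square of 13.2 to 50.3 per degree of freedom). Named genes were the 8 members, the largest called rise and fall of each list, and the 3 genes most like each member. The members and lists were chosen with earlier results of these data known. The values of 1 listed gene are not reported here.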

Additional observations from a re-analysis of the deposited data

How the results depend on the processing

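The calls of the 7 tested genes in CM against DMEM (5), CM + Rux against DMEM + Rux (5), DMEM + Rux against DMEM (0) and the interaction (0) were the same in number under each alternative. In CM + Rux against CM, the count of 0 became 1 (Il10) without the filter, with the replicate block and by total counts alone, and ran from 0 to 1 with a sample left out. In CM + Rux + IKK-16 against CM + Rux, the count of 1 ran from 1 to 2 with a sample left out (Ifnar2 was added). In the 2 h group against CM + Rux, the count of 1 became 2 (Il10 was added) without the filter and with the replicate block, and ran from 1 to 2 with a sample left out. The block changed no other call of these genes. Each leave-one-out fit drew its spread from all groups, so that where 1 sample was left in DMEM or the 2 h group it was assumed to vary like the others. The cause of these changes was not tested.

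Over all genes in CM + Rux against CM, the 412 calls became 745 with the block, 685 without the filter, and 258 or 243 when CM replicate 2 or CM + Rux replicate 1 was left out. In the interaction, the 51 calls became 444 with the block, 349 without the filter, 234 with DESeq2 and 90 by total counts alone, and ran from 17 to 114 with a sample left out.

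The direction turned in 21 of the fits, for differences that were not called. By total counts alone, Il10ra was at -0.062 in CM against DMEM and -0.21 in CM + Rux against DMEM + Rux, Ifngr1 at 0.0084 with IKK-16 and Ifnar2 at -0.0090 in the 2 h comparison. Without the filter, Il10rb was at 0.0039 in CM + Rux against DMEM + Rux. With a sample left out, Il10rb ran from -0.029 to 0.076 with IKK-16 and from -0.10 to 0.076 in CM + Rux against DMEM + Rux, where Il10ra ran from -0.011 to 0.16. In DMEM + Rux against DMEM, Ifnar1 ran from -0.074 to 0.057, Ifngr1 from -0.068 to 0.18 and Ifngr2 from -0.14 to 0.043. Ifngr2 ran from -0.11 to 0.074 in the interaction, and Ifnar2 from -0.011 to 0.12 in the 2 h comparison.

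Depth limits the scarce genes most. Ifnb1 had at most 7 fragments in a sample, and Il10 had 2 to 24 fragments in the samples without CM, so that its ratios to DMEM and DMEM + Rux rest on few fragments.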
